A study of Mus musculus with 36 samples.

Results

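RNA newly transcribed late in the response of mouse NIH-3T3 fibroblasts to a type I interferon, IFN alpha, was set directly against RNA made at the same time in the response to the type II interferon, IFN gamma. NIH-3T3 is an established fibroblast line from mouse embryos. The medium was replaced by one with 100 U/ml IFN alpha, with 100 U/ml IFN gamma or, as mock, with no interferon, and 4-thiouridine (4sU) was present at 500 µM from 150 to 180 min after the medium change, the end of a 3 h treatment. 4sU, a modified uridine, is taken up and incorporated during transcription, so that RNA carrying it can be separated and the arrays read transcription within those 30 min and not the stock of RNA already in the cell. The comparison used the 3 IFN alpha arrays and the 3 IFN gamma arrays of this window, 6 of the 36 Affymetrix arrays of the series, and every gene that passed a filter on low values, 9549 in all. The 3 mock arrays of the window are given as the background level and did not enter the difference.

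The arrays of a group carry replicate numbers, but the labels do not say that they came from separate cultures. The p-values therefore measure a spread between arrays of a group that may be technical. That spread is pooled over all groups and windows of the series. For a single gene it can be wider or narrower than that of the arrays compared. All cells were of 1 line, and with bulk RNA fewer responding cells and less RNA per cell cannot be told apart.

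As background, IFN alpha and IFN gamma bind different receptors. IFN alpha acts mainly through ISGF3, a complex that holds Stat2 and Irf9 and binds the interferon-stimulated response element (ISRE), and it is known for inducing proteins that block virus replication. IFN gamma acts mainly through STAT dimers at the gamma-activated site (GAS) and is known for inducing antigen presentation, chemokines for T cells and GTPases that attack the vacuoles of intracellular pathogens; Irf1, one of its direct targets, then acts on many of the same promoters as ISGF3.

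The values are log2 GCRMA expression values, on which a difference of 1 is a 2-fold difference; they rank a gene between arrays but not one gene against another. An array limits precision through the number of replicates and the signal over background, since it gives no counts. Correlations over the tested genes were 0.986 to 0.995 between arrays of 1 group and 0.966 to 0.977 between the interferons, and no array duplicated another. The summed fibroblast markers, all 12 of which passed the filter, overlapped between the groups (15.6 to 15.72 on the IFN alpha arrays and 15.49 to 15.67 on the IFN gamma arrays). None of the markers of lymphocytes, epithelium or endothelium passed, and of 13 macrophage markers only Cd14 did, with summed levels of 6.98 to 7.16 for IFN alpha and 6.85 to 6.97 for IFN gamma. Of 10 adipocyte and muscle markers only Lpl and Fabp4 passed. The summed level of all 10 was 8.83 to 9.01 with IFN alpha, 8 to 8.15 with IFN gamma and 8.8 to 9.05 in mock. Lpl alone averaged 8.76, 7.75 and 8.79 in these groups, 1.01 higher with IFN alpha than with IFN gamma. Fabp4 averaged 3.56, 3.68 and 3.64. Whether such cells had a part in any result was not tested. IFN gamma array 3 stood apart in the Gapdh control probe sets, whose 3′ minus 5′ signal was 0.51 there and -0.49 to -0.15 on the other 5 interferon arrays. It stood apart in the Actb control probe sets too, at 2.16 against 1.25 to 1.48 on the other 5. Without that array 343 genes were called, 340 of them among the 448 described next.

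The transcription programs of the 2 interferons differed widely at 150 to 180 min, with more genes on the IFN gamma side and the largest difference on the IFN alpha side. The antiviral effectors Mx1, Rsad2, Mx2, Cmpk2 and Ifit3 were 33.6-fold to 156-fold higher with IFN alpha, and the T-cell chemokine Cxcl9, the activin-binding protein Fst and the transcription factor Irf1 were 79.2-fold, 17.4-fold and 15-fold higher with IFN gamma. For Mx1, Cmpk2 and Cxcl9 the lower group's mean was under a log2 value of 4, the level a gene had to pass to be tested, so those folds and their rank depend on background signal. In a limma fit of all 36 arrays, called at an adjusted p under 0.05 over all 9549 genes, 267 genes (2.8% of those tested) were higher with IFN gamma and 181 (1.9%) with IFN alpha. Together these 448 genes are 4.69% of those tested, beside 897 genes (9.39%) at an unadjusted p under 0.05. The arrays of the interferons did not overlap in any of the 448, against 1982 of all tested genes (20.8%), which were 1037 with every IFN gamma array the higher (10.9%) and 945 with every IFN alpha array the higher (9.9%). The median size was 1.12 on the log2 scale, or 2.17-fold, on the IFN gamma side and 1.01, or 2.01-fold, on the IFN alpha side, where the median absolute difference over all tested genes was 0.11 and their median difference 0. On each side 12 genes differed by more than 3 on the log2 scale. With the replicate number as a block, 725 genes were called (7.59%), 411 (4.3%) higher with IFN gamma and 314 (3.29%) with IFN alpha, among them all 448. With only the 9 arrays of this window, 773 were called (8.1%), 440 of them among the 448. The shares of gene lists given below stand beside 4.69% of all tested genes, or beside 7.59% with the replicate block.

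**Figure D1:**
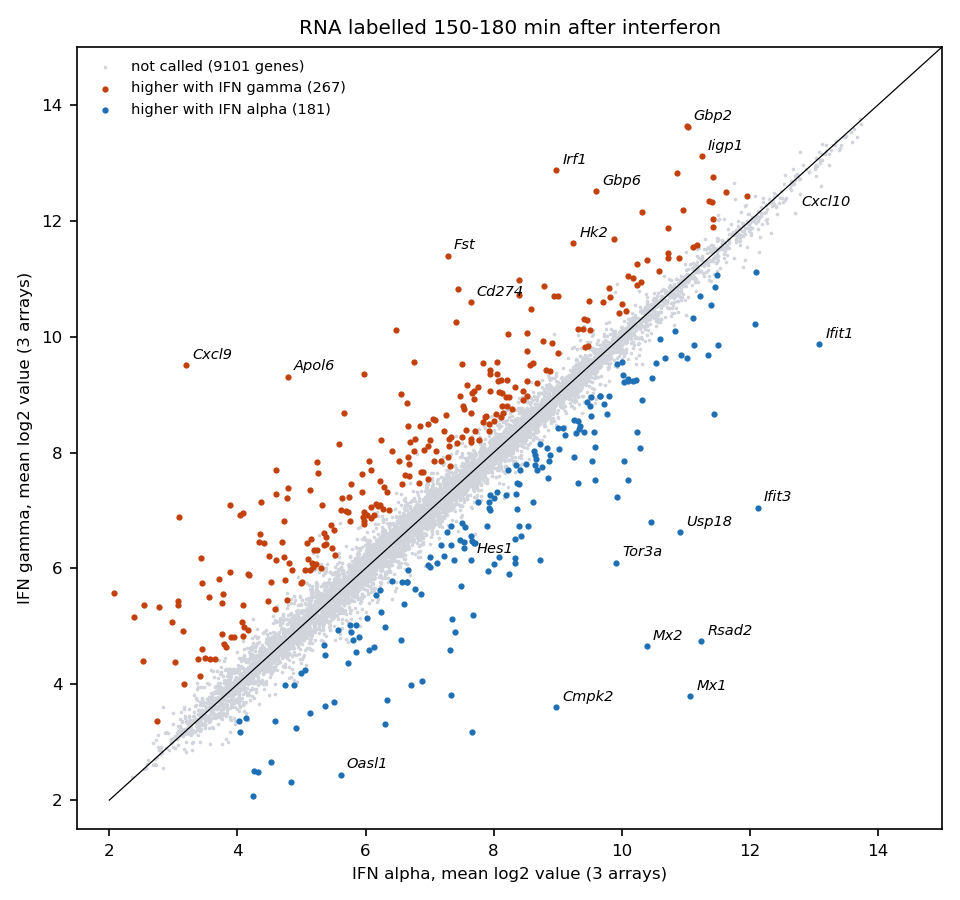
Mean log2 value of each of the 9549 tested genes over the 3 IFN alpha arrays (horizontal axis) and the 3 IFN gamma arrays (vertical axis); orange points are the 267 genes called higher with IFN gamma, blue points the 181 called higher with IFN alpha, grey points the genes not called, and the line marks equal values. Mx1 and Rsad2 lie farthest below the line and Cxcl9 farthest above it, while Cxcl10 lies near it at the top of the scale.

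Promoters of the called genes are shown for both sides because the motifs of the 2 pathways were unequally spread over them. RefSeq promoters of the GRCm38.p6 assembly, 250 bases before to 50 after each annotated start, were searched on both strands for GAAA followed after any 2 bases by a second GAAA, the core of an ISRE, and for TTCNNNGAA, the GAS consensus, which reads the same on both strands. An ISRE core stood in 27 of 194 promoters of the IFN alpha side (13.9%) and in 10 of 276 of the IFN gamma side (3.62%), against 298 of 10013 promoters of all tested genes (2.98%). A GAS match stood in 15 of 194 (7.73%), 40 of 276 (14.5%) and 657 of 10013 (6.56%). Promoter entries were found for 206 of the 267 genes, 143 of the 181 and 7826 of the 9549, and a gene with several starts counted once for each. A match is a string of letters in the window and was not tested as a binding site. The 2 chosen to show a GAS match on the IFN gamma side are those of Irf1 (chr11:53769764-53770063, plus strand) and the feedback inhibitor Socs3 (chr11:117969317-117969616, minus strand). That of Gbp2 (chr3:142620413-142620712, plus strand), also on the IFN gamma side, holds an ISRE core instead, as do those of Ifit3 (chr19:34583279-34583578, plus strand) and Rsad2 (chr12:26456403-26456702, minus strand) on the IFN alpha side. Each is printed 5′ to 3′ along its gene with the matches in capitals.
Irf1: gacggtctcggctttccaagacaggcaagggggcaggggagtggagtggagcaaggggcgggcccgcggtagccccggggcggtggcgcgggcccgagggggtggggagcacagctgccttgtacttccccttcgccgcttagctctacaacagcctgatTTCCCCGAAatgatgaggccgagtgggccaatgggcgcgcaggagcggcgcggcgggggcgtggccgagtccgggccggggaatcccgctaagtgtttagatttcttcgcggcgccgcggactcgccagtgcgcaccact
Socs3: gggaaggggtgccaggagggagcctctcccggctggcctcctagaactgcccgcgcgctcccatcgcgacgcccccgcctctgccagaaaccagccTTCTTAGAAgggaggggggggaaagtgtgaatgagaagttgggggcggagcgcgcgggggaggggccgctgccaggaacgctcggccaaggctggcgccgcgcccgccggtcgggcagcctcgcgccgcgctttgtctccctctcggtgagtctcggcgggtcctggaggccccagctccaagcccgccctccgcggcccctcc
Gbp2: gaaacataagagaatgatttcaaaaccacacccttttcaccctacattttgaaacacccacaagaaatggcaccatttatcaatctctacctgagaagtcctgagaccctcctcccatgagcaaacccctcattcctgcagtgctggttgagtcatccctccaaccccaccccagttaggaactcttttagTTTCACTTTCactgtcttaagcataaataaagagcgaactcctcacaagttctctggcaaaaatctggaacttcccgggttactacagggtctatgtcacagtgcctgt
Ifit3: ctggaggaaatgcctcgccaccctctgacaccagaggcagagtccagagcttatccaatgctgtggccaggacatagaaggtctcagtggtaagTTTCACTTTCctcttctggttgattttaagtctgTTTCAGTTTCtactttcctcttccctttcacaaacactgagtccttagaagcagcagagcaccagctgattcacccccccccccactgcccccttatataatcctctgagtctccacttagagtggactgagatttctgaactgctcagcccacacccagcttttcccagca
Rsad2: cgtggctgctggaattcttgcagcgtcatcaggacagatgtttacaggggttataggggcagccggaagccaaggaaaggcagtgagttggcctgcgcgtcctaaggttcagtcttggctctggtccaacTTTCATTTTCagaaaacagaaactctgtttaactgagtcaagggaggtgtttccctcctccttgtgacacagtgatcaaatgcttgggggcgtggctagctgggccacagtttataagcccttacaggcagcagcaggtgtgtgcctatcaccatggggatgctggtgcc

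The genes of the IFN gamma side are described first, beginning with transcription factors and regulators of the pathway itself. Of 19 tested interferon receptors, kinases and factors, 5 were higher with IFN gamma (Irf1, Batf2, Nlrc5, Stat3 and Ifnar2) and 1, Irf7, with IFN alpha. The share called was 31.6%, and the median of the list was -0.07. Irf1 had log2 values of 12.92, 12.81 and 12.92 on the IFN gamma arrays, 9.02, 8.93 and 8.97 on the IFN alpha arrays and 7.85, 7.78 and 7.77 in mock. All 3 IFN gamma arrays lay far above the IFN alpha arrays, which in turn lay above mock, and the difference was 3.91 ± 0.19 (SE), 15-fold (adjusted p = 1.9e-16). Batf2, a basic leucine zipper factor, gave 5.46, 4.91 and 5.09 with IFN gamma and 2.43, 2.37 and 2.36 with IFN alpha, the latter at the mock level of 2.35, 2.35 and 2.32. Its difference of 2.77 ± 0.12 (adjusted p = 3.6e-17) is measured against arrays below the log2 value of 4 that the filter asks for, so it is a difference from background signal. Nlrc5, which switches on MHC class I genes, was induced by both interferons, to 7.59, 7.56 and 7.78 with IFN gamma and 5.44, 5.51 and 4.84 with IFN alpha from 2.37, 2.35 and 2.34 in mock, and the IFN gamma arrays were higher by 2.38 ± 0.13 (adjusted p = 1.5e-15). Stat3 was higher by 1.16 ± 0.24 and Ifnar2, a chain of the type I receptor, by 1.12 ± 0.2 (adjusted p = 0.00016). Ifnar2 averaged 7.8 with IFN gamma, 6.68 with IFN alpha and 6.58 in mock.

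Irf9 and Stat2, the ISGF3 components named above, were above mock with both interferons and did not pass the test between them. Irf9 gave 9.07, 9.24 and 9.25 with IFN alpha and 8.74, 8.97 and 8.87 with IFN gamma, from 5.13, 4.95 and 4.82 in mock. The arrays did not overlap, but the difference of 0.33 ± 0.17 did not pass the test (adjusted p = 0.66, 95% interval -0.03 to 0.68). Stat2 gave 8.66, 8.74 and 8.88 with IFN alpha and 8.57, 8.6 and 7.47 with IFN gamma, with mock at 4.69, 4.8 and 4.72. The third IFN gamma array was the lowest, and the difference of 0.54 ± 0.42 (adjusted p = 1) had an interval of -0.31 to 1.4. Irf7, which amplifies type I interferon responses, was higher with IFN alpha, at 6.91, 6.88 and 6.34 against 3.82, 3.63 and 4.5 with IFN gamma and 2.5, 2.55 and 2.8 in mock. The difference was 2.73 ± 0.28, 6.62-fold (adjusted p = 1.1e-08), with the IFN gamma mean below 4.

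Feedback inhibitors split by interferon. Of 18 tested, 4 were higher with IFN gamma (Socs1, Cish, Socs3 and Ptpn1), 1, Usp18, was higher with IFN alpha, and the median was -0.06. The share called was 27.8%. Socs1, which inhibits JAK kinases at the IFN gamma receptor, gave 8.69, 8.99 and 8.36 with IFN gamma, 5.79, 5.64 and 5.54 with IFN alpha and 4.07, 4.04 and 4.74 in mock, a difference of 3.02 ± 0.34 (8.14-fold, adjusted p = 6.2e-08). Socs3, whose promoter is printed above with its GAS match, gave 13.63, 13.63 and 13.6 with IFN gamma and 11.39, 10.83 and 10.92 with IFN alpha, where mock was already at 11.24, 11.09 and 10.87. The IFN alpha arrays overlapped mock, and IFN gamma was higher by 2.58 ± 0.15 (5.97-fold, adjusted p = 7.8e-15). Cish, another SOCS-family inhibitor, stood at 7.19, 6.61 and 6.95 with IFN gamma, but at 4.35, 3.75 and 4.02 with IFN alpha and 4.77, 4.75 and 4.83 in mock, so the IFN alpha arrays lay below mock. It was higher with IFN gamma by 2.88 ± 0.27 (adjusted p = 1.6e-09), and Ptpn1, a tyrosine phosphatase, by 0.77 ± 0.18 (adjusted p = 0.0041). Usp18, which removes ISG15 and blocks signalling from the type I receptor, gave 10.92, 10.87 and 10.95 with IFN alpha, 6.67, 6.41 and 6.81 with IFN gamma and 3.04, 3.34 and 2.81 in mock. Both interferons were above mock, and IFN alpha exceeded IFN gamma by 4.28 ± 0.5 (19.5-fold, adjusted p = 1.4e-07).

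The GTPases of cell-autonomous immunity were mostly above mock with both interferons and higher with IFN gamma. Of 6 tested guanylate-binding proteins 4 (66.7%) were higher with IFN gamma and none with IFN alpha (median -2.16), and of 7 tested immunity-related GTPases (IRG) 5 (71.4%) and none (median -1.28). Gbp2 gave 13.68, 13.63 and 13.62 with IFN gamma, 11.11, 11.07 and 10.89 with IFN alpha and 5.4, 5.91 and 4.6 in mock. The groups did not overlap, and the difference was 2.62 ± 0.35 (6.15-fold, adjusted p = 1.8e-06). Gbp6 gave 12.63, 12.46 and 12.44 with IFN gamma, 9.64, 9.5 and 9.66 with IFN alpha and 3.28, 3.3 and 2.8 in mock, a difference of 2.91 ± 0.31 (adjusted p = 3e-08), with its other probe set at -1.62 for IFN alpha minus IFN gamma. Gbp8 was near the mock level of 2.72, 2.69 and 2.71 on the IFN alpha arrays (2.78, 2.76 and 2.77), all under 4, and stood at 5.28, 5.26 and 5.47 with IFN gamma (adjusted p = 6.8e-18). Gbp2b was higher with IFN gamma by 1.75 ± 0.1 (adjusted p = 1.9e-14). The remaining pair, Gbp3 and Gbp7, was higher on every IFN gamma array, by 0.88 (adjusted p = 0.21) and 0.99 (adjusted p = 0.15), which did not pass the test; Gbp3 passed with the replicate block (adjusted p = 0.00094).

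Among the IRG proteins, Igtp (Irgm3) gave 12.79, 12.83 and 12.84 with IFN gamma, 10.84, 10.9 and 10.83 with IFN alpha and 3.69, 3.31 and 3.53 in mock. Each group was tight, and IFN gamma was higher by 1.96 ± 0.29 (3.9-fold, adjusted p = 1.2e-05). Iigp1 gave 13.11, 13.04 and 13.17 with IFN gamma, 11.22, 11.25 and 11.29 with IFN alpha and 2.69, 2.99 and 2.79 in mock, a difference of 1.85 ± 0.36 (adjusted p = 0.00076). Ifi47 was higher by 1.81 ± 0.33, Gm4951 by 1.28 ± 0.23 and Irgm2 by 1.24 ± 0.24 (adjusted p = 0.0003, 0.00023 and 0.00061). Every one of these 5 was at least 4 above mock on the log2 scale with either interferon. Irgm1, at 12.65 with IFN gamma and 11.76 with IFN alpha, differed by 0.89 ± 0.28 and did not pass (adjusted p = 0.065; 0.0048 with the replicate block).

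Some genes of antigen presentation through MHC class I were higher with IFN gamma, and the others did not pass the test. Of 13 tested class I and peptide-loading genes 4 (30.8%) were higher with IFN gamma (Tap2, Tapbpl, Tap1 and Erap1), none with IFN alpha, and the median was 0.01. Tapbp, Calr, Canx and Pdia3 of the peptide-loading steps were among those not called. Tap1, a subunit of the peptide transporter, gave 9.2, 9.04 and 9.23 with IFN gamma, 7.56, 7.67 and 7.54 with IFN alpha and 3.22, 3.42 and 2.68 in mock, a difference of 1.57 ± 0.28 (2.96-fold, adjusted p = 0.00022). Its partner Tap2 was higher by 1.79 ± 0.25 and the peptide editor Tapbpl by 1.7 ± 0.18 (adjusted p = 4.5e-06 and 1.6e-08). Erap1, an aminopeptidase that trims peptides, was higher by 1.06 ± 0.13 (adjusted p = 5.8e-07), with the IFN alpha mean under 4. The light chain B2m gave 11.66, 11.55 and 11.49 with IFN alpha and 11.68, 11.55 and 11.44 with IFN gamma, against 10.15, 10.26 and 10.19 in mock. Those arrays overlapped fully, and the 95% interval of the difference was -0.41 to 0.43. The heavy chain genes H2-K1 and H2-D1 differed by 0.44 and 0.38 toward IFN alpha, with intervals of -0.03 to 0.91 and -0.03 to 0.8, and did not pass.

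Of 5 tested immunoproteasome genes 2 (40%) were higher with IFN gamma and none with IFN alpha (median -0.73). Psmb9, a catalytic subunit, gave 7.99, 8.07 and 8.41 with IFN gamma, 5.36, 5.92 and 5.49 with IFN alpha and 2.62, 2.5 and 2.59 in mock. The difference was 2.56 ± 0.21 (5.92-fold, adjusted p = 7.8e-11). None of the 4 tested genes of the MHC class II pathway was called (median -0.02).

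Chemokine transcription held the largest IFN gamma-side difference as well as induced genes that did not pass the test. Of 12 tested chemokines 6 (50%) were higher with IFN gamma, none with IFN alpha, and the median was -0.66. Cxcl9, which draws T cells through Cxcr3, gave 9.74, 9.39 and 9.39 with IFN gamma, 3.63, 2.93 and 3.04 with IFN alpha and 2.4, 2.35 and 2.31 in mock. The IFN alpha arrays were under 4 and only slightly above mock, and IFN gamma was higher by 6.31 ± 0.48 (79.2-fold, adjusted p = 1.1e-11). Its other probe set was called in the same direction at a smaller size, -1.42 for IFN alpha minus IFN gamma. Its relative Cxcl10, a ligand of the same receptor, gave 12.63, 12.76 and 12.71 with IFN alpha and 12.26, 12.17 and 12 with IFN gamma, from 5.45, 5.27 and 5.04 in mock. Every IFN alpha array was the higher, yet the difference of 0.56 ± 0.47 did not pass (adjusted p = 1, interval -0.4 to 1.52; adjusted p = 0.0057 with only the 9 arrays of the window). The monocyte chemokine Ccl2 stood at 12.96, 12.98 and 12.75 with IFN gamma and 12.61, 12.74 and 12.65 with IFN alpha (mock 10.92, 10.68 and 10.87), a difference of 0.23 ± 0.14 with an interval of -0.51 to 0.05. Ccl8 was higher with IFN gamma by 1.78 ± 0.24, the eotaxin Ccl11 by 1.77 ± 0.24, both against IFN alpha means under 4, and Cx3cl1 by 1.38 ± 0.32 (adjusted p = 1.5e-06, 2.1e-06 and 0.0058). Neither of the other 2 probe sets of Cx3cl1 was called, though both had the same sign. Cxcl1 and Cxcl12 completed the 6, higher by 0.91 and 0.81.

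Ligands that T cells read went in both directions, with 2 of 10 tested higher with IFN gamma and 2 with IFN alpha (40% called, median 0.12). Cd274, which encodes the checkpoint ligand PD-L1, gave 10.2, 10.55 and 11.03 with IFN gamma, 7.36, 7.79 and 7.76 with IFN alpha and 2.64, 2.61 and 2.73 in mock. It was induced by both and higher with IFN gamma by 2.96 ± 0.39 (7.78-fold, adjusted p = 1.6e-06). Lgals9, a galectin, was instead higher with IFN alpha, at 8.41, 8.39 and 8.23 against 6.25, 6.17 and 6.11 with IFN gamma and 5.62, 5.53 and 5.32 in mock, a difference of 2.17 ± 0.28 (adjusted p = 8.4e-07). Cd47, the signal that restrains phagocytosis, was higher with IFN alpha by 0.77 ± 0.17 (adjusted p = 0.0026; its other 2 probe sets had the same sign and were not called). Icam1 was near background on all 9 arrays of the window, at 2.36 with IFN alpha and 2.4 with IFN gamma.

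The receptor of the cytokine IL-15 and the cytokine itself were on opposite sides. Il15ra gave 5.86, 5.72 and 4.64 with IFN gamma and 4.07, 3.4 and 3.81 with IFN alpha, a difference of 1.64 ± 0.19 (adjusted p = 1.1e-07) against a mean under 4, whereas Il15 gave 7.59, 7.49 and 7.37 with IFN alpha and 6.6, 6.41 and 6.45 with IFN gamma, a difference of 0.99 ± 0.29 (adjusted p = 0.037). The call of Il15 ended in each of the 6 fits that left out 1 interferon array, at 0.94 to 1.05 (adjusted p = 0.073 to 0.15). Tslp, a cytokine made by epithelial and stromal cells, was 1.78 ± 0.25 higher with IFN alpha (adjusted p = 4.5e-06) because IFN gamma lay below mock, at 6.01, 5.53 and 5.58 against 7.37, 7.39 and 6.81, while IFN alpha was at 7.68, 7.43 and 7.35. Of 16 tested cytokines and growth factors these were the 3 called (18.8%), and the median was 0.1. With the replicate block 5 were called, 31.2% beside 7.59% of all genes.

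A few death-receptor and inflammatory genes were higher with IFN gamma. Of 21 tested cell death genes 3 (14.3%) were higher with IFN gamma and none with IFN alpha (median -0.13). Of 17 tested NF-kB pathway genes these counts were 3 (17.6%) and none (median -0.15). Over all tested genes 2.8% were higher with IFN gamma and 1.9% with IFN alpha. With the replicate block 4 and 1 NF-kB pathway genes were called, 29.4% beside 7.59% of all genes. Fas, the death receptor, gave 8.55, 8.46 and 8.48 with IFN gamma, 7.09, 7 and 6.86 with IFN alpha and 6.52, 6.43 and 6.27 in mock, a difference of 1.51 ± 0.21 (adjusted p = 3.9e-06). The TNF receptor Tnfrsf1a gave 9.33, 9.24 and 9.16 with IFN gamma, and its IFN alpha arrays (8.13, 8.05 and 8.04) lay within the mock range of 8.2, 8.05 and 7.91; the difference was 1.17 ± 0.23 (adjusted p = 0.00061). Tnfaip2, a TNF-induced gene, gave 10.81, 10.9 and 10.74 with IFN gamma, 7.64, 7.52 and 7.21 with IFN alpha and 7.85, 7.83 and 7.5 in mock. The IFN alpha arrays overlapped mock, and IFN gamma was higher by 3.36 ± 0.16 (10.3-fold, adjusted p = 1.4e-16). The mitochondrial superoxide dismutase Sod2 was higher by 1.75 ± 0.2 (adjusted p = 1e-07).

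Genes outside the classical interferon set also separated the 2 treatments. Fst, which encodes the activin antagonist follistatin, gave 11.31, 11.44 and 11.46 with IFN gamma, whereas IFN alpha (7.26, 7.3 and 7.27) was slightly under mock (7.47, 7.33 and 7.46). The difference of 4.12 ± 0.18 (17.4-fold, adjusted p = 3.6e-17) recurred in its other probe set, at -4.52 for IFN alpha minus IFN gamma. Notch1, a receptor of cell-to-cell signalling, was higher with IFN gamma by 2.44 ± 0.27 (adjusted p = 3.8e-08), at 7.54, 6.93 and 7.15 against 4.95, 4.6 and 4.76 with IFN alpha and 4.79, 4.71 and 4.36 in mock; its other probe set gave -1.2 for IFN alpha minus IFN gamma. The Notch target Hes1 went the other way, with 6.21, 6.1 and 6.13 on the IFN gamma arrays, 7.53, 7.74 and 7.65 on the IFN alpha arrays and 7.81, 7.72 and 8.3 in mock. IFN gamma lay below mock there, and IFN alpha was higher by 1.49 ± 0.24 (adjusted p = 4.8e-05). Id4, a target of BMP signalling, was higher with IFN alpha by 0.67 ± 0.16 (adjusted p = 0.0048; neither of its other 2 probe sets was called, both with the same sign). Of 24 tested Notch, BMP and TGF-beta genes 2 were higher with IFN gamma and 3 with IFN alpha (20.8% called, median 0.1). With the replicate block these counts were 2 and 6, or 33.3% beside 7.59% of all genes.

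Metabolic genes gave few calls but 2 large ones. Hk2, a hexokinase that starts glycolysis, gave 11.62, 11.5 and 11.72 with IFN gamma, 9.33, 9.33 and 9.07 with IFN alpha and 8.99, 9.23 and 9.17 in mock. IFN alpha overlapped mock, and IFN gamma was higher by 2.37 ± 0.11 (5.17-fold, adjusted p = 1.8e-16). Bnip3, a mitophagy receptor, was higher with IFN gamma by 1.24 ± 0.29 and Adm, the vasodilator adrenomedullin, with IFN alpha by 1.18 ± 0.21 (adjusted p = 0.0054 and 0.00019). These were the 3 called of 26 tested glycolysis and hypoxia genes (11.5%, median -0.27). With the replicate block 5 were called, 19.2% beside 7.59% of all genes. Wars, the tryptophanyl-tRNA synthetase, gave 9.54, 9.56 and 9.6 with IFN gamma, 6.83, 6.79 and 6.65 with IFN alpha and 6.9, 7.04 and 6.81 in mock, and was higher with IFN gamma by 2.81 ± 0.26 (7.03-fold, adjusted p = 1.1e-09). All 3 other probe sets of Wars were called in the same direction. Of 12 tested genes of nitric oxide, tryptophan, iron and redox metabolism 2 were higher with IFN gamma and 1 with IFN alpha (25% called, median 0.06).

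The remaining leaders of the IFN gamma side fell in none of the lists. Apol6, an apolipoprotein L, gave 9.31, 9.27 and 9.34 with IFN gamma, 4.9, 5.14 and 4.32 with IFN alpha and 2.58, 2.57 and 2.53 in mock, a difference of 4.52 ± 0.32 (23-fold, adjusted p = 1.4e-12). AA467197 was higher by 3.8 ± 0.21, from an IFN alpha mean under 4, and BC023105 by 3.64 ± 0.26 (adjusted p = 4.3e-15 and 2.2e-12). Ggct, the gamma-glutamylcyclotransferase of glutathione breakdown, gave 9.59, 9.23 and 9.28 with IFN gamma, 6.4, 5.77 and 5.73 with IFN alpha and 5.88, 6.04 and 5.72 in mock, a difference of 3.4 ± 0.29 (adjusted p = 1.6e-10), with its other probe set at -2.2 for IFN alpha minus IFN gamma. Il18rap, the accessory chain of the IL-18 receptor, was higher by 3.21 ± 0.22, also from a mean under 4, and Rnf19b, a ubiquitin ligase, by 2.86 ± 0.16 (adjusted p = 8.3e-13 and 6.5e-15). IFN alpha was close to mock for Ggct and Il18rap, and above it for Apol6 and BC023105.

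**Figure D2:**
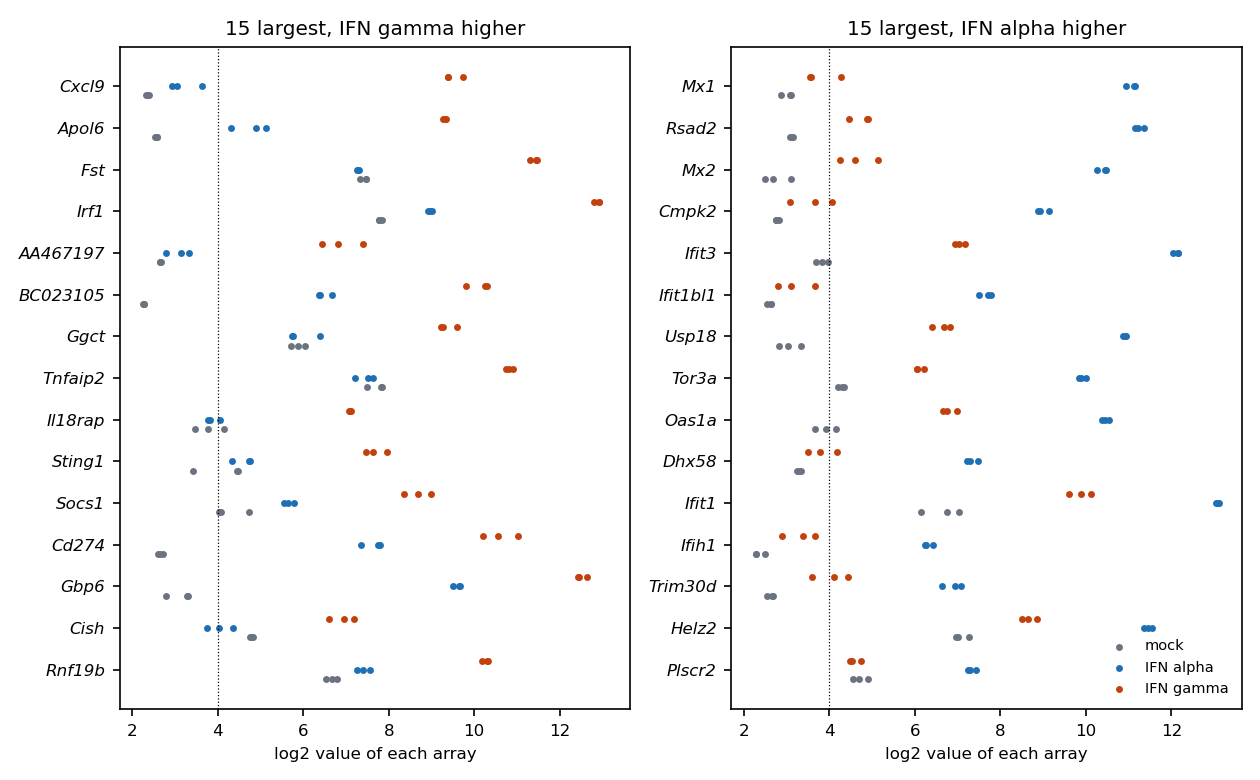
Log2 value of each array for the 15 genes with the largest called difference in each direction among those with a mean of at least 6 in the higher group (left, IFN gamma higher; right, IFN alpha higher); each point is 1 array, grey for mock, blue for IFN alpha and orange for IFN gamma, and the dotted line marks the filter at 4. The 3 arrays of one interferon are apart from the 3 of the other in all 30 genes, and for Fst, Ggct, Tnfaip2 and Il18rap the IFN alpha arrays lie near the mock arrays.

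On the IFN alpha side every tested member of the antiviral effector families was called. All 4 tested genes of the Mx and viperin list were higher with IFN alpha (median 6.12), as were all 4 tested IFIT genes (median 3.84) and all 5 tested genes of the OAS and RNase L list (median 2.49), and none of these 13 was higher with IFN gamma. Only 5 of 10 OAS and RNase L genes on the array and 4 of 5 IFIT genes passed the filter. The tested OAS genes had a median mock level of 2.62, under the filter at 4, so the filter favoured members that an interferon raised. Mx1, a dynamin-like GTPase that traps viral nucleocapsids, gave 11.15, 11.12 and 10.95 with IFN alpha, 3.56, 3.54 and 4.27 with IFN gamma and 3.09, 3.08 and 2.87 in mock. Its IFN gamma mean was under 4 although each IFN gamma array exceeded each mock array, and the difference of 7.28 ± 0.42 (156-fold, adjusted p = 1e-14) was the largest of the comparison. Rsad2, or viperin, which makes a chain-terminating nucleotide and whose promoter is printed above, gave 11.14, 11.22 and 11.37 with IFN alpha, 4.91, 4.45 and 4.87 with IFN gamma and 3.14, 3.08 and 3.12 in mock. IFN alpha was higher by 6.5 ± 0.59 (90.5-fold, adjusted p = 7e-10), and the other 2 probe sets gave 6.43 and 6.51. Mx2 gave 10.27, 10.44 and 10.46 with IFN alpha, 5.13, 4.6 and 4.25 with IFN gamma and 3.1, 2.5 and 2.69 in mock, a difference of 5.73 ± 0.43 (adjusted p = 8.9e-12). Cmpk2, the nucleotide kinase encoded next to Rsad2, was higher by 5.38 ± 0.45 from an IFN gamma mean under 4 (adjusted p = 9.4e-11), and its other probe set by 2.76.

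The IFIT proteins bind foreign RNA ends. Ifit3, with 2 ISRE cores in the promoter printed above, gave 12.04, 12.16 and 12.15 with IFN alpha, 7.16, 7.04 and 6.94 with IFN gamma and 3.97, 3.69 and 3.83 in mock. IFN gamma was well above mock, and IFN alpha exceeded it by 5.07 ± 0.4 (33.6-fold, adjusted p = 3e-11). Ifit1 gave 13.11, 13.05 and 13.08 with IFN alpha, 10.12, 9.6 and 9.89 with IFN gamma and 7.03, 6.74 and 6.14 in mock, a difference of 3.21 ± 0.5 (9.26-fold, adjusted p = 2.6e-05). Ifit1bl1 was higher by 4.48 ± 0.56, from an IFN gamma mean under 4, and Ifit2 by 1.41 ± 0.2, the smallest of the family (adjusted p = 5.5e-07 and 4.3e-06). These genes are close relatives, so probe sets that read more than 1 of them could not be told apart here.

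The OAS proteins sense double-stranded RNA. Oas1a gave 10.44, 10.37 and 10.53 with IFN alpha, 6.98, 6.76 and 6.66 with IFN gamma and 4.15, 3.91 and 3.67 in mock, a difference of 3.65 ± 0.3 (12.5-fold, adjusted p = 4.6e-11). Oasl1 was at the mock level of 2.45, 2.46 and 2.45 with IFN gamma (2.45, 2.42 and 2.45), below 4, and at 5.91, 5.55 and 5.38 with IFN alpha (adjusted p = 4.8e-15). Oas1b was higher by 2.49 ± 0.3 and Oas2 by 2.23 ± 0.11 (adjusted p = 3e-07 and 3.1e-16). Oasl2 was strongly induced by both, to 11.52, 11.49 and 11.52 with IFN alpha and 9.82, 9.85 and 9.89 with IFN gamma from 2.96, 3.22 and 2.73 in mock, and differed by 1.66 ± 0.45 (adjusted p = 0.024). That call ended in each of the 6 fits that left out 1 interferon array (1.64 to 1.68, adjusted p = 0.073 to 0.08), although the arrays within each group lay close together; with only the 9 arrays of the window the SE was 0.12 in place of 0.45 and the adjusted p = 2.1e-06.

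Sensors of viral nucleic acid were mostly on the IFN alpha side. Of 22 tested sensors and RNA effectors 13 were higher with IFN alpha, 2 with IFN gamma (68.2% called), and the median was 1.07. Dhx58, the RNA helicase LGP2, gave 7.28, 7.48 and 7.22 with IFN alpha, 3.49, 3.77 and 4.18 with IFN gamma and 3.28, 3.34 and 3.25 in mock, a difference of 3.51 ± 0.3 (adjusted p = 1.2e-10). The related helicase Ifih1, or MDA5, was higher by 2.99 ± 0.16 and Ddx60 by 2.6 ± 0.23, all 3 from IFN gamma means under 4 (adjusted p = 4.2e-15 and 3.7e-10). Ddx58, which encodes RIG-I, averaged 9.58 with IFN alpha and 7.53 with IFN gamma, against 4.66 in mock, and was higher by 2.05 ± 0.27 (adjusted p = 1.6e-06). Tlr3, the endosomal receptor of double-stranded RNA, was higher by 2.34 ± 0.33 (adjusted p = 4.1e-06). The DNA sensor Cgas was higher with IFN alpha by 0.9 ± 0.16 (adjusted p = 0.00012), whereas Sting1, the adaptor that acts downstream of it, was one of the 2 exceptions. Sting1 gave 7.46, 7.64 and 7.97 with IFN gamma and 4.76, 4.72 and 4.34 with IFN alpha, the latter near mock at 4.48, 4.45 and 3.41, so that IFN gamma was higher by 3.08 ± 0.42 (8.46-fold, adjusted p = 2.3e-06). The other exception, Samhd1, an enzyme that depletes deoxynucleotides, gave 10.68, 10.62 and 10.87 with IFN gamma, 8.48, 8.4 and 8.33 with IFN alpha and 7.19, 7.28 and 7.05 in mock, a difference of 2.32 ± 0.19 (adjusted p = 3.4e-11). The other probe sets of Sting1 (1) and Samhd1 (2) were called in the same direction.

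Restriction factors and ubiquitin ligases followed the IFN alpha side as well. Of 18 tested membrane and nuclear restriction factors 13 (72.2%) were higher with IFN alpha, none with IFN gamma (median 1.42). Of 13 tested ISG15, TRIM and ubiquitin ligase genes these counts were 7 (53.8%) and none (median 0.63). Tor3a, a torsin-family ATPase, gave 9.88, 10 and 9.85 with IFN alpha, 6.05, 6.04 and 6.22 with IFN gamma and 4.3, 4.2 and 4.35 in mock, a difference of 3.8 ± 0.28 (14-fold, adjusted p = 4e-12). Slfn8 was higher by 2.7 ± 0.34, Phf11d by 2.59 ± 0.34 and Daxx, a histone chaperone, by 2.57 ± 0.25 (adjusted p = 4.6e-07, 1.3e-06 and 3.8e-09). Bst2, or tetherin, which holds budding virions at the membrane, averaged 8.08 with IFN alpha, 6.19 with IFN gamma and 3.85 in mock (adjusted p = 5.5e-08). Trim30d was higher by 2.83 ± 0.22, Herc6, the ISG15 ligase of mice, by 1.96 ± 0.15 and Trim30a by 1.88 ± 0.22 (adjusted p = 1.6e-11, 7.7e-12 and 1.8e-07). Rnf213 was higher by 1.86 ± 0.31 (adjusted p = 5.7e-05), but its other probe set gave -0.03 and was not called. Outside the lists, the helicase Helz2 gave 11.35, 11.54 and 11.45 with IFN alpha, 8.86, 8.64 and 8.5 with IFN gamma and 7.01, 7.26 and 6.95 in mock, a difference of 2.78 ± 0.2 (adjusted p = 2.2e-12), and the scramblase Plscr2 was higher by 2.74 ± 0.37 (adjusted p = 2.3e-06) with the IFN gamma arrays at the mock level.

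Some strongly induced antiviral genes did not pass the test between the interferons. None of 5 tested PARP genes was called, and their median was 0.48. Parp14 averaged 9.66 with IFN alpha, 9.18 with IFN gamma and 3.26 in mock, with a difference of 0.48 ± 0.27 (interval -0.06 to 1.03). Parp12 differed by 0.68 and Parp11 by 0.83 toward IFN alpha, with intervals of 0.12 to 1.24 and 0.13 to 1.53, and both passed with only the 9 arrays of the window (adjusted p = 0.00051 and 0.0025). Rtp4 averaged 11.89 with IFN alpha, 11.2 with IFN gamma and 5.65 in mock, and its interval of -0.4 to 1.78 spans a wide range. Intervals of this width leave room for differences of 2-fold or more in Parp11, Parp12, Parp14 and Rtp4.

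**Figure D3:**
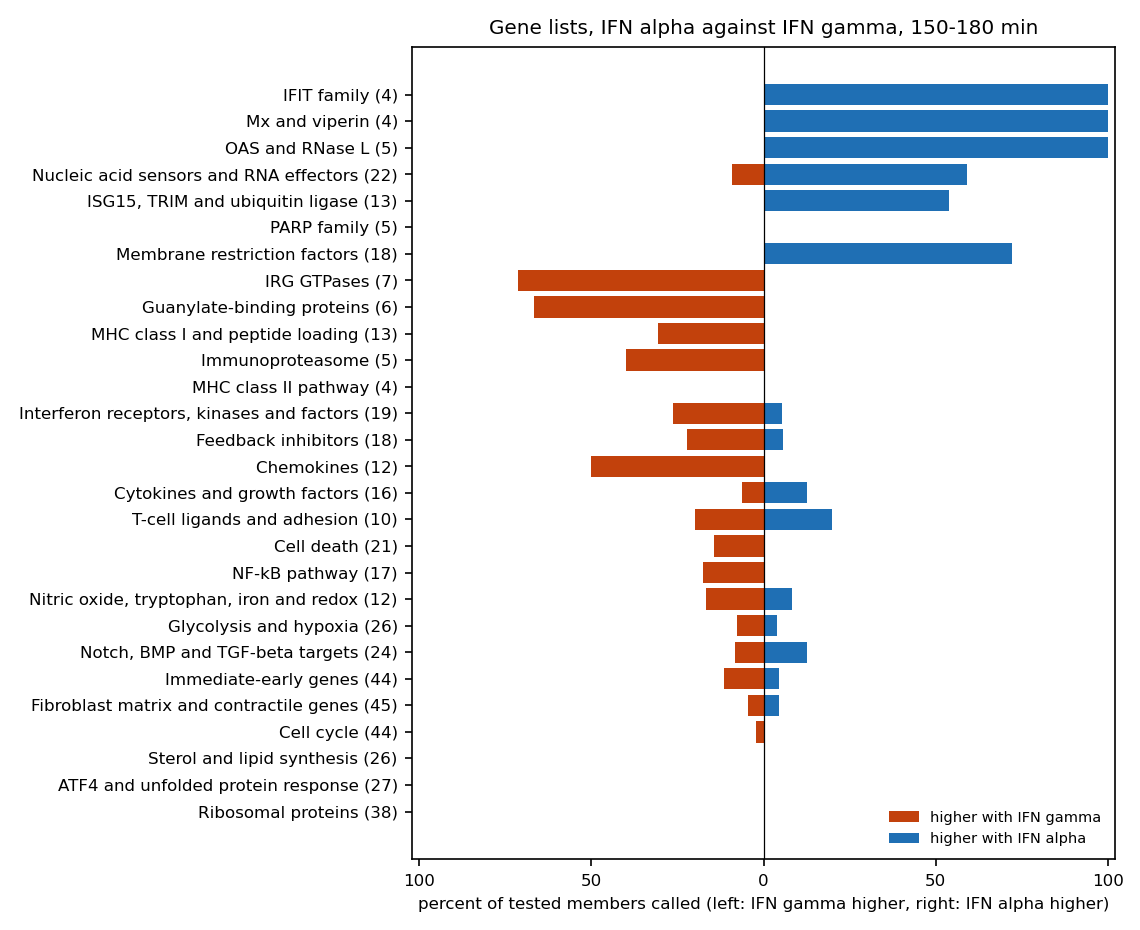
Share of the tested members of each gene list (number tested in brackets) that was called higher with IFN gamma (orange, to the left) or with IFN alpha (blue, to the right), in percent; lists with under 4 tested genes, markers and housekeeping genes are left out. The Mx and viperin, IFIT and OAS lists reach 100% on the IFN alpha side, the guanylate-binding proteins and IRG GTPases have called members only on the IFN gamma side, and the ribosomal, sterol and unfolded-protein lists have no called member in the fit without the replicate block.

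Of 44 tested cell cycle genes only Cdk6 was called (2.27%), and 4 were called with the replicate block (9.09%). Cdk6 gave 10.56, 10.61 and 10.67 on the IFN gamma arrays, 9.49, 9.52 and 9.45 on the IFN alpha arrays and 9.57, 9.51 and 9.58 in mock. The difference was 1.13 ± 0.11 (adjusted p = 1.4e-09), and its other probe set was called too. Of 45 tested matrix and contractile genes 2 were higher with IFN gamma, the hyaluronan synthase Has2 (0.88 ± 0.2) and the protease inhibitor Timp3 (0.63 ± 0.11), and 2 with IFN alpha, Cthrc1 (1.04 ± 0.21) and Postn (0.74 ± 0.16), a share of 8.89% beside the 4.69% of all genes; with the replicate block 3 and 7 were called, 22.2% beside 7.59% of all genes. None of the 3 other probe sets of Timp3 was called, though all had the same sign. Cthrc1 and Postn, both secreted matrix proteins, were below mock with IFN gamma, where IFN gamma minus mock was -1.52 and -0.67. Every IFN alpha array of Cthrc1 (6.08, 5.73 and 5.61) was below every mock array as well (6.54, 6.17 and 6.17). Postn was at 7.25, 7.29 and 7.42 with IFN gamma, 8.04, 8.1 and 8.03 with IFN alpha and 8.03, 8.05 and 7.91 in mock. Of 44 tested immediate-early genes 5 were higher with IFN gamma, led by the stress factor Atf3 (1.48 ± 0.17) and including Egr2 (0.96 ± 0.18) and Btg1 (0.85 ± 0.21; neither of its other 2 probe sets was called), and 2 with IFN alpha, including Egr3 (0.83 ± 0.17). These 7 are 15.9% of the list beside 4.69% of all genes, and the list moved most with the replicate block, to 15 higher with IFN gamma and 7 with IFN alpha, 50% beside 7.59%. No gene was called among 26 of sterol and lipid synthesis (median -0.08), 27 of the ATF4 and unfolded protein responses (median 0.02), 38 ribosomal proteins (median 0.03) or 11 housekeeping genes (median 0.06); the block added Abca1 to the first and Trib3 to the second. Leaving out markers, ribosomal proteins and housekeeping genes, 27 lists held 55 of the 267 IFN gamma-side genes and 61 of the 181 on the IFN alpha side, out of 466 tested list genes. Over all 9549 tested genes the 2 sides were 2.8% and 1.9%. The lists were chosen with earlier results of these data known, so these counts are a description only.

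Besides Il15 and Oasl2, 9 of the called genes chosen for naming lost their call in some fits that left out 1 array. Bak1, a pore-forming death protein (1.16 ± 0.33 toward IFN gamma), lost its call in 5 of 6 fits that left out 1 interferon array, all but the one without IFN alpha array 2 (1.05 to 1.23, adjusted p = 0.061 to 0.16). Bcl3, an NF-kB cofactor (1.48 ± 0.41 toward IFN gamma), lost it in all but the one without IFN alpha array 1 (1.38 to 1.56, adjusted p = 0.056 to 0.13). Pvr, a ligand of NK-cell receptors (0.44 ± 0.12 toward IFN gamma), lost it in all but the one without IFN gamma array 2 (0.4 to 0.46), and none of its other 6 probe sets was called, 1 of them with the opposite sign. Upp1, a uridine phosphorylase near background (0.63 ± 0.19 toward IFN gamma), lost it in all but the one without IFN gamma array 3 (0.53 to 0.65). The arginine transporter Slc7a2 (0.76 ± 0.23 toward IFN alpha) lost it without IFN alpha array 2 or 3 or IFN gamma array 1 or 3 (0.61 to 0.8). Maff, a small leucine zipper factor (1 ± 0.27 toward IFN gamma), lost it without IFN alpha array 1 or IFN gamma array 2 or 3 (0.78 to 1.02), and the proteasome activator subunit Psme1 (0.73 ± 0.21 toward IFN gamma) without IFN alpha array 2 or 3 or IFN gamma array 1 (0.55 to 0.7). Tgfb3, a TGF-beta (0.64 ± 0.16 toward IFN alpha), lost it without IFN alpha array 2 or IFN gamma array 1 or 3 (0.56 to 0.59), and the RNA-decay factor Zfp36l1 (0.42 ± 0.1 toward IFN alpha) without array 3 of either group (0.37 to 0.4).

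Set beside the mock arrays of the same window, the called genes fell into a few classes, taking a mean within 1 of mock on the log2 scale as near mock. Of the 267 genes higher with IFN gamma, 125 (46.8%) were above mock with IFN gamma and near mock with IFN alpha, among them Cxcl9, Fst, Ggct, Tnfaip2 and Sting1. Another 112 (41.9%) were near mock with both, and 30 (11.2%), including Irf1, Cd274, Gbp6, Gbp2 and Psmb9, were above mock with both. Of the 181 higher with IFN alpha, 60 (33.1%) were above mock with IFN alpha and near mock with IFN gamma (Mx1, Cmpk2, Dhx58, Ifih1 and others), 64 (35.4%) were near mock with both and 39 (21.5%) above mock with both, including Rsad2, Mx2, Ifit3 and Usp18. The last 18 (9.94%) were near mock with IFN alpha and below mock with IFN gamma, among them Tslp, Hes1, Cthrc1 and Lpl. In 33 of the 267 and 23 of the 181 genes the lower interferon's mean was under 4, so the size of the difference is limited by background signal there.

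The same contrast on other arrays of the series shows how early the separation was in place. At 30 to 60 min, with arrays that share no sample with the late window, 260 genes were higher with IFN gamma (2.72%) and 284 with IFN alpha (2.97%). Of the late IFN gamma-side genes 142 were called the same way then, 53.2% of the late list and 54.6% of the 30 to 60 min list, and 3 (Tmem140, Idnk and Katna1) were called the opposite way. Of the late IFN alpha-side genes 115 were called the same way, 63.5% of the late and 40.5% of the earlier list, and none the opposite way. At 0 to 30 min only 50 genes were higher with IFN gamma (0.524%) and 18 with IFN alpha (0.189%), of which 46 and 15 were in the late lists. Irf1, Socs3 and Cxcl9 were already higher with IFN gamma at 0 to 30 min, by 2.98, 2.24 and 3.34, and Ifit3 and Ifit1 with IFN alpha, by 4.26 and 3.85.

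Whether the difference itself moved between 30 to 60 and 150 to 180 min was tested as a difference of differences. It changed for 99 genes (1.04% of those tested), toward IFN gamma for 68 (0.712%) and toward IFN alpha for 31 (0.325%); with the replicate block 260 genes (2.72%) changed. Among the 68, 34 were called for IFN gamma late and not earlier, and 18 were called for IFN alpha earlier and no longer late. Of the 34, 14 belong to the lists, among them 4 guanylate-binding proteins, Nlrc5 and Batf2. Nlrc5 was at background with both interferons at 30 to 60 min (2.37 and 2.38) and differed by 2.38 late (adjusted p of the change = 3.8e-11). Batf2, Gbp8, Gbp2b and Il15ra likewise differed by 0 to 0.05 earlier and changed by 2.75, 2.62, 1.75 and 1.64 toward IFN gamma. In the 30 min windows Batf2 exceeded the filter's log2 value of 4 only on the late IFN gamma arrays. It could therefore enter the test through the same arrays that gave its call. Cd274 changed by 3.89 ± 0.56, from a difference of 0.93 toward IFN alpha that did not pass to 2.96 toward IFN gamma (adjusted p of the change = 3.1e-05). Wars, Gbp2, Gbp6, Tap2 and Tapbpl also changed toward IFN gamma, by 2.31, 2.27, 2.21, 1.97 and 2.01.

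Of the 18 genes with an early IFN alpha difference that was no longer called late, 8 belong to the lists, and the other 10 include Trim56, Sap30 and Gnb4. Parp14 went from 2.86 higher with IFN alpha to 0.48 (adjusted p of the change = 0.0002), with IFN gamma averaging 5.22 at 30 to 60 min and 9.18 late. Parp9 and Parp12 went from 2.21 and 2.19 to 0.42 and 0.68. The class I gene H2-M3, the immunoproteasome subunit Psmb10 and the peptide-loading chaperone Tapbp went from 1.7, 1.46 and 1.49 higher with IFN alpha to IFN alpha minus IFN gamma values of -0.5, -0.74 and -0.3. Ifit1 stayed on the IFN alpha side but its difference fell from 7.02 to 3.21 (adjusted p of the change = 0.0016), as its IFN gamma mean went from 6.01 to 9.87 while IFN alpha was at 13.03 and 13.08. Mock also rose over the same windows, from 4.05 to 6.64. The RIG-I gene Ddx58 changed by 1.91 in the same direction, from 3.96 to 2.05 (adjusted p of the change = 0.0045).

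Irf1 moved toward IFN gamma through its IFN alpha arm. Its IFN gamma mean was 12.99 at 30 to 60 min and 12.88 late, whereas its IFN alpha mean was 11.22 and then 8.98, so the difference went from 1.77 to 3.91 (change 2.14 ± 0.27, adjusted p = 3e-06). Socs3 had the same form, with IFN alpha at 12.66 and then 11.04, and IFN gamma at 14.14 and 13.62 (change 1.09, adjusted p = 0.0021). Fst, Tnfaip2, Rnf19b and Hk2 also widened toward IFN gamma, by 1.53, 1.23, 1.22 and 0.78. For each of the 4 the IFN alpha mean was lower late than at 30 to 60 min. The mock mean was lower late too, at 7.42 after 8.31 for Fst and 7.73 after 8.45 for Tnfaip2. For Rnf19b and Hk2 mock was at 6.67 after 7.25 and 9.13 after 9.96. The IFN gamma mean was also lower late for Fst, Tnfaip2 and Hk2, and higher for Rnf19b.

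Of the 31 genes that moved toward IFN alpha, 14 were called for IFN alpha late and not earlier, and 8 were called for IFN gamma earlier and no longer late. Oasl1, Ifih1, Ddx60 and Oas2 were near background in both groups at 30 to 60 min and changed by 3.03, 2.56, 2.36 and 2.23 (adjusted p = 3.4e-10, 2.6e-09, 1.8e-05 and 9.9e-12). Icam1 was the opposite case, at 4.89 with IFN gamma and 2.43 with IFN alpha at 30 to 60 min and at background with both late (change 2.43, adjusted p = 3.6e-09). In the 30 min windows Oasl1 and Ifih1 exceeded the filter's log2 value of 4 only on the late IFN alpha arrays. Both could therefore enter the test through the same arrays that gave their calls, so these p-values are not independent of the filter. Ccl11 stayed higher with IFN gamma, but by 1.77 late after 3.28 earlier (adjusted p of the change = 0.014). With the replicate block, the change was also called for 13 named genes that had not passed, among them Ifit3, Usp18, Oasl2, Cish, Fas and Rnf213 (adjusted p from 9.9e-05 to 0.023 over the 13).

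**Figure D4:**
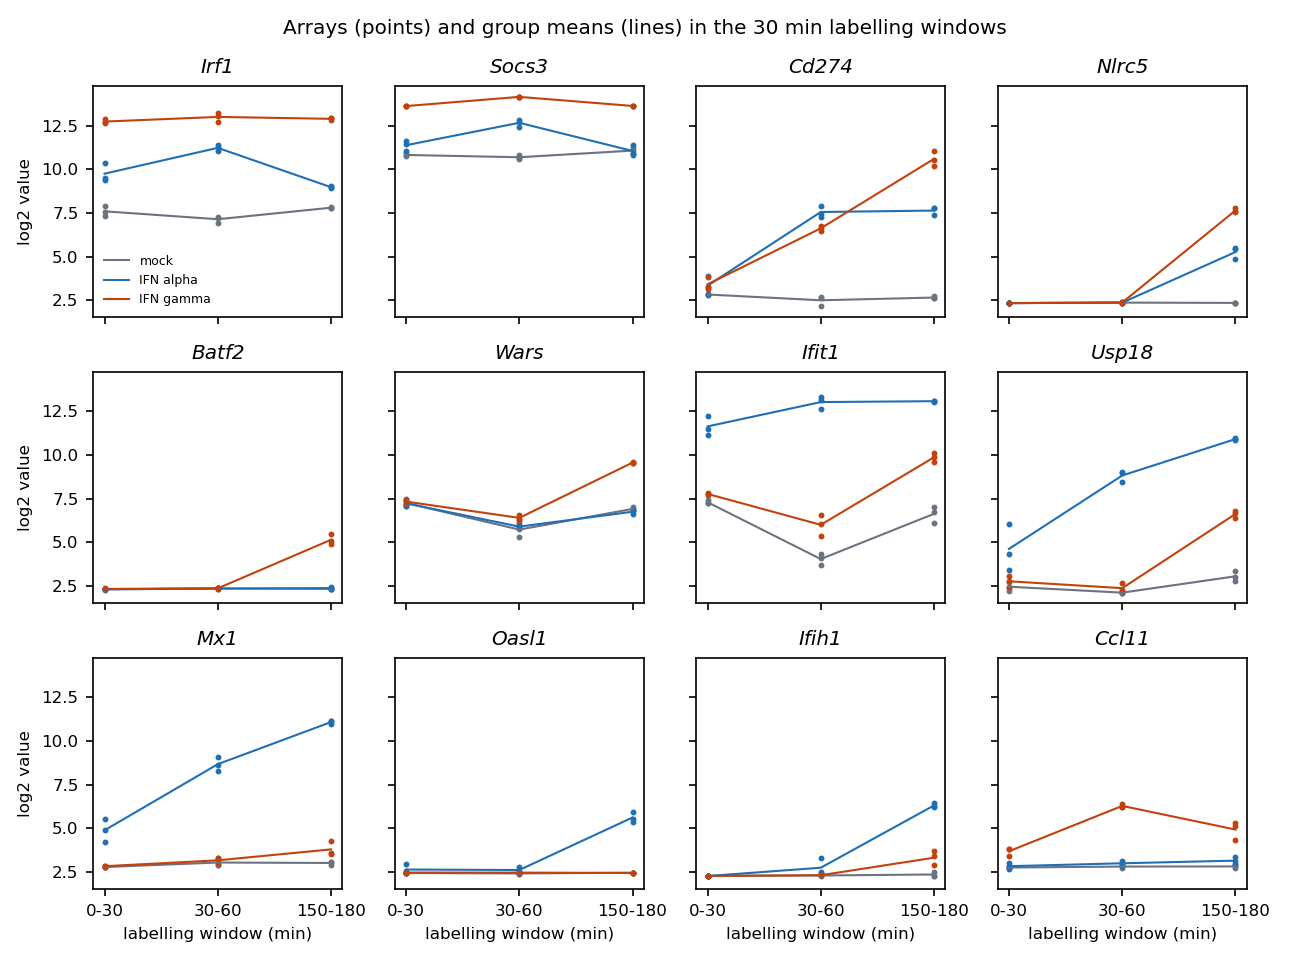
Log2 value of each array (points) and group mean (lines) of 12 genes in the 0-30, 30-60 and 150-180 min labelling windows, for mock (grey), IFN alpha (blue) and IFN gamma (orange). Irf1 and Socs3 fall with IFN alpha after 30-60 min while IFN gamma stays high, Nlrc5 and Batf2 leave background in the last window, and the IFN gamma line of Ifit1 rises toward the IFN alpha line.

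**Figure D5:**
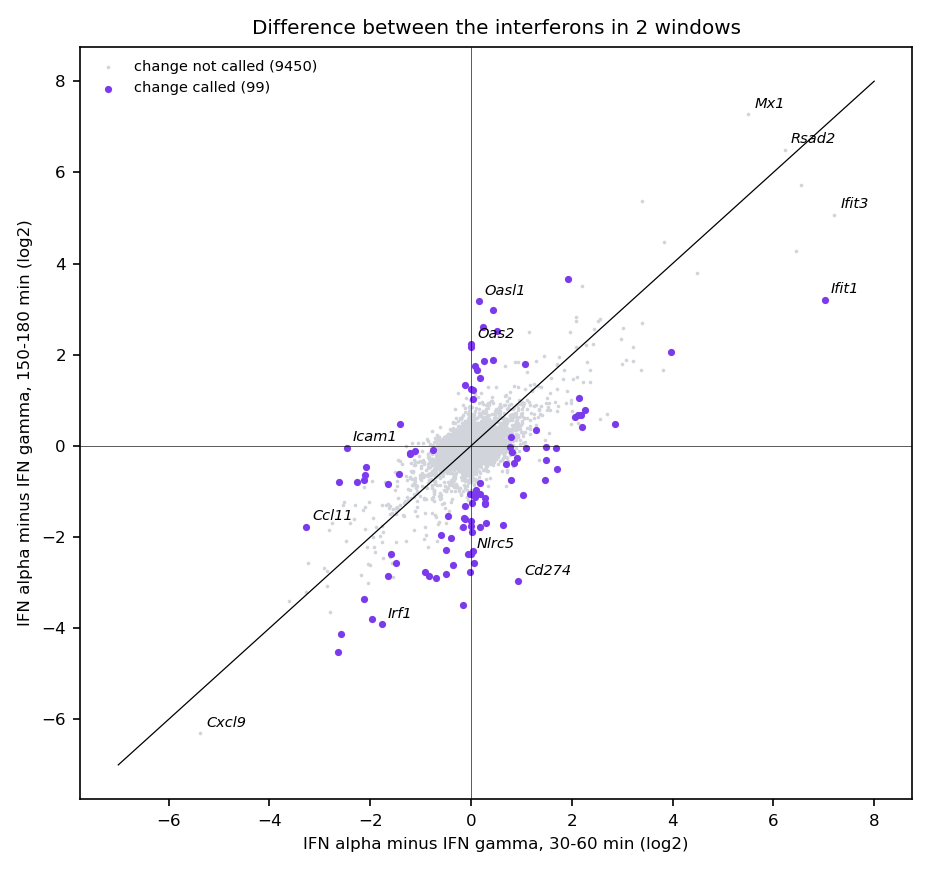
IFN alpha minus IFN gamma on the log2 scale at 30-60 min (horizontal axis) and 150-180 min (vertical axis) for each tested gene; purple points are the 99 genes whose difference changed between the windows, grey points the others, and the diagonal marks equal differences. Ifit1 lies far to the right of the diagonal, Nlrc5 and Cd274 below the horizontal line near a value of 0 to 1 at 30-60 min, and Icam1 far to the left at a late value near 0.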

How the data were processed

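Newly transcribed RNA of 36 NIH-3T3 samples was read on Affymetrix mouse arrays. The deposited table holds log2 values that the authors made with GCRMA, per the submitters' processing notes; the version is not given in the sources used here, nor a genome build. The 45101 probe sets ran from 1.34 to 14.82. Symbols came from the platform annotation (34945 probe sets with 1 symbol, 932 with several, 9160 with none and 64 controls), and 34741 of those with 1 symbol matched the RefSeq gene table. Probe sets with several or no symbol and the controls were left out. Gapdh had a probe set with 1 symbol but was not among the tested genes. A gene was tested on its highest-mean probe set with a log2 value over 4 in at least 3 arrays, which left 17982 probe sets and 9549 genes. Those 3 arrays can be 1 group, so a gene at background elsewhere could enter through the group where it was high. Irf8 did not pass, and some well-known interferon genes are not analysed here.

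Group means of all 36 arrays (12 groups of 3) were fitted in limma 3.58.1 (R 4.3.3 and version 1.17.8 of the data.table package) with variances moderated along the mean level (24 residual and 6.8 prior degrees of freedom), and IFN alpha minus IFN gamma was a contrast within each window. Tests were two-sided with Benjamini-Hochberg adjustment over all genes, and errors are standard errors of this fit with n = 3 arrays per group. The script was tested on simulated data. The spread is pooled over windows, and the median SD within groups was 0.163 at 150-180 min, 0.239 at 30-60 min and 0.334 at 0-60 min.

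Same-numbered IFN alpha and IFN gamma arrays deviated together from their group means (r = 0.69, 0.23 and 0.26 for numbers 1, 2 and 3). Arrays 2 and 3 of opposite groups did so more strongly (0.38 and 0.41), so these values do not show that numbers 2 and 3 mark pairs. The main fit therefore ignores the numbers, and the replicate block that uses them is given as an alternative. Named genes were the 15 with the largest called difference in each direction at a mean of at least 6, up to 4 called members per list and direction, and a fixed panel; other list members are named to account for counts and intervals, chosen after their values were seen. The gene lists, the panel and the comparison were chosen with earlier results of these data known. Alternatives covered filters, scaling, probe sets, the arrays in the fit, weights, the block and each left-out array.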

Additional observations from a re-analysis of the deposited data

Results flagged for a closer look

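For 30 named genes the difference between the interferons was itself different in the 2 windows compared, 30 to 60 and 150 to 180 min, by the test of the difference of differences in limma (adjusted p under 0.05 over 9549 genes). Values here are the change of IFN alpha minus IFN gamma on the log2 scale, so a negative value is a move toward IFN gamma. Among regulators and feedback genes the change was -2.14 for Irf1, -2.75 for Batf2, -2.37 for Nlrc5 and -1.09 for Socs3. Among GTPases it was -2.27 for Gbp2, -1.75 for Gbp2b, -2.21 for Gbp6 and -2.62 for Gbp8. Among genes of antigen presentation it was -1.97 for Tap2, -2.01 for Tapbpl and -1.03 for Erap1. Genes of cell communication changed by -3.89 (Cd274), -1.64 (Il15ra), -1.63 (Ccl8), -1.53 (Fst) and -1.23 (Tnfaip2), while Ccl11 and Icam1 moved toward IFN alpha, by 1.51 and 2.43. In metabolism and growth, Wars changed by -2.31, Hk2 by -0.78 and Cdk6 by -1.21. Apol6 changed by -1.88, AA467197 by -1.84 and Rnf19b by -1.22. In the antiviral families the directions differed: Ifit1 changed by -3.81, while Oasl1 (3.03), Ifih1 (2.56), Ddx60 (2.36), Oas2 (2.23) and Oas1a (1.73) moved toward IFN alpha. In the 30 min windows Oasl1 and Ifih1 exceeded the filter's log2 value of 4 only late with IFN alpha. Batf2 exceeded it only late with IFN gamma, so the changes of these genes are not independent of the filter.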

How the results depend on the processing

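Of 105 named genes 73 kept their call and direction under all 20 alternatives and 8 under every one of 18 or 19 that tested them, 20 lost the call under at least 1, and Ccl2, Cxcl10 and Irf9 gained one. The difference of B2m, 0.01, went from -0.05 to 0.07 and changed sign, at -0.04 without IFN alpha replicate 1, 0 without IFN gamma replicate 2 and -0.05 without IFN gamma replicate 3. Leaving out 1 of the 6 arrays gave 200 to 234 genes higher with IFN gamma, 133 to 157 with IFN alpha, 343 to 381 in all and 79 to 87 whose difference changed between windows. With the replicate block in all 36 arrays these counts were 411, 314, 725 and 260, no named late call changed, and with the block in the 6 arrays alone the first 3 were 645, 605 and 1250. Only the 9 arrays of the window gave 424, 349 and 773, and only the 6 interferon arrays gave 321 on the IFN alpha side and 703 in all; the change between windows could not be fitted there. Array weights gave 659, 691, 1350 and 973, with 48.8% of calls on the IFN gamma side against 59.6%, but the weights stopped before they converged. All probe sets in place of 1 per gene gave 276 on the IFN alpha side, and leaving out mock 0-60 min replicate 1 gave 156 changed differences. A 2-fold minimum, which only removes calls, left 149, 94 and 243. Except for the 2-fold minimum, the cause of these moves was not tested. The other filters, scalings and the fit without a trend gave 390 to 505 calls in all.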
